A study of Mus musculus with 24 samples.

Results

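Cerebellum was compared with hippocampus within Npc1-/- mice that had received dipyridamole. The comparison takes 8 of the 24 libraries of the series, 4 from each tissue, which were chosen by their labels alone. Both tissues came from the same 4 mice, animals 10, 12, 13 and 29, called replicates 1 to 4 here. Their strain was BALB/cNctr-Npc1m1N/J. The Npc1m1N allele removes Npc1 function in every cell, so neither tissue had working NPC1 at any age. Dipyridamole was given by intraperitoneal injection in a mixture of PBS and PEG400 at 30 mg/kg on 5 days a week from postnatal day 28. Tissue was taken at postnatal day 63. Replicates 1 and 2 were male and replicates 3 and 4 female. For the last comparisons, the same tissue pair was taken from 4 vehicle-injected Npc1-/- mice of postnatal day 63, of which 3 were male, and from 4 vehicle-injected Npc1+/+ littermates of postnatal day 65, all female. Dipyridamole-treated Npc1+/+ mice were not analysed here, so every treated library is also an Npc1-/- library.

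NPC1 is a membrane protein of the late endosome and lysosome that passes cholesterol from the lumen to the rest of the cell, and without it cholesterol and sphingolipids pile up in lysosomes. The cerebellum is known to be affected severely in this disease: Purkinje cells, its output neurons, die in an ordered pattern, and microglia and astrocytes react around them, while the hippocampus keeps most of its neurons. Dipyridamole blocks equilibrative nucleoside transport, which raises extracellular adenosine, and inhibits phosphodiesterases, the enzymes that break down cyclic AMP and cyclic GMP. In healthy mice too the tissues differ: most neurons of the cerebellum, a hindbrain structure, are granule cells, and those of the hippocampus, a forebrain structure, are pyramidal and dentate granule neurons.

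The treated libraries held 6117929 to 11298903 counts, with a median of 8.54 M. Levels are given as CPM, a gene's count scaled to a common library size after TMM normalization, and each difference is the log2 fold change of cerebellum over hippocampus from edgeR's quasi-likelihood test with the animal as a block. A gene passed when its Benjamini-Hochberg adjusted p was under 0.05. SE is the size of the difference over the square root of the test's F statistic. Where the lower tissue held few counts, this SE can be smaller than counting error alone. A difference followed by a second value in parentheses gives, in the second, the difference without animal 29. Npc1 itself gave 13.4, 23.8, 15.9 and 27.3 CPM in cerebellum and 17.8, 19.6, 21.4 and 15.5 CPM in hippocampus. The tissues overlapped and Npc1 did not pass (log2 difference 0.08, SE 0.22, adjusted p = 0.792; -0.17 without animal 29). In Npc1+/+ mice it stood at 103 ± 4.71 CPM in cerebellum and 78.0 ± 15 CPM in hippocampus (mean ± SD, n = 4).

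The labelled tissue was checked against 7 defining markers of each structure. All 7 cerebellar markers separated the tissues in every mouse. Gabra6, the GABA-A receptor subunit of cerebellar granule cells (chromosome 11, 42197264 to 42211899, GRCm39), gave 245, 201, 199 and 178 CPM in cerebellum and 0, 0.464, 0 and 0 CPM in hippocampus. En2, a homeobox gene of the midbrain and hindbrain, gave 84.1, 78.4, 69.3 and 58.9 CPM in cerebellum and 0, 0, 0.376 and 0 CPM in hippocampus. The hippocampal library of replicate 4, from animal 29, stood apart in the hippocampal markers. Prox1, the transcription factor of dentate granule cells, gave 115, 135, 109.9 and 14.7 CPM in the 4 hippocampal libraries. Fibcd1, a marker of CA1 pyramidal neurons, gave 42.3, 41.8, 23.8 and 2.31 CPM, and Neurod6, of forebrain excitatory neurons, 638, 958, 734 and 251 CPM. In each of these the library of replicate 4 was the lowest, and for Prox1 it lay below all 4 cerebellar libraries (75.3, 55.0, 62.9 and 52.6 CPM). Wfs1, also a hippocampal marker, was not low there, at 171 CPM against 155 to 196 CPM in the other 3. Cux2 and Rorb, markers of upper cortical layers named after their values were seen, were the highest in it, at 138 and 69.0 CPM against at most 42.3 and 31.6 CPM. The summed CPM of 16 neocortex markers was 670.0 in it and 405 to 416 in the other 3 hippocampal libraries. Its log2 CPM correlated at most at 0.969 with another hippocampal library, across genes, while the other 3 correlated at 0.983 or more. Both libraries of animal 29 carry the same ion code in the labels, 124, whereas each other library has its own. Gabra6 and En2 were at 0 counts in that hippocampal library, while Cbln1, which granule cells of the cerebellum secrete, was at 28.4 CPM against 2.32 to 9.40 CPM in the other 3. It is called the library labelled hippocampus, replicate 4, and results are given with and without animal 29. The hippocampal library of replicate 1 stood apart in choroid plexus genes, with a summed CPM of 5745 against 181 to 470.0 in the other 3 and 1807 to 3332 in cerebellum.

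**Figure D1:**
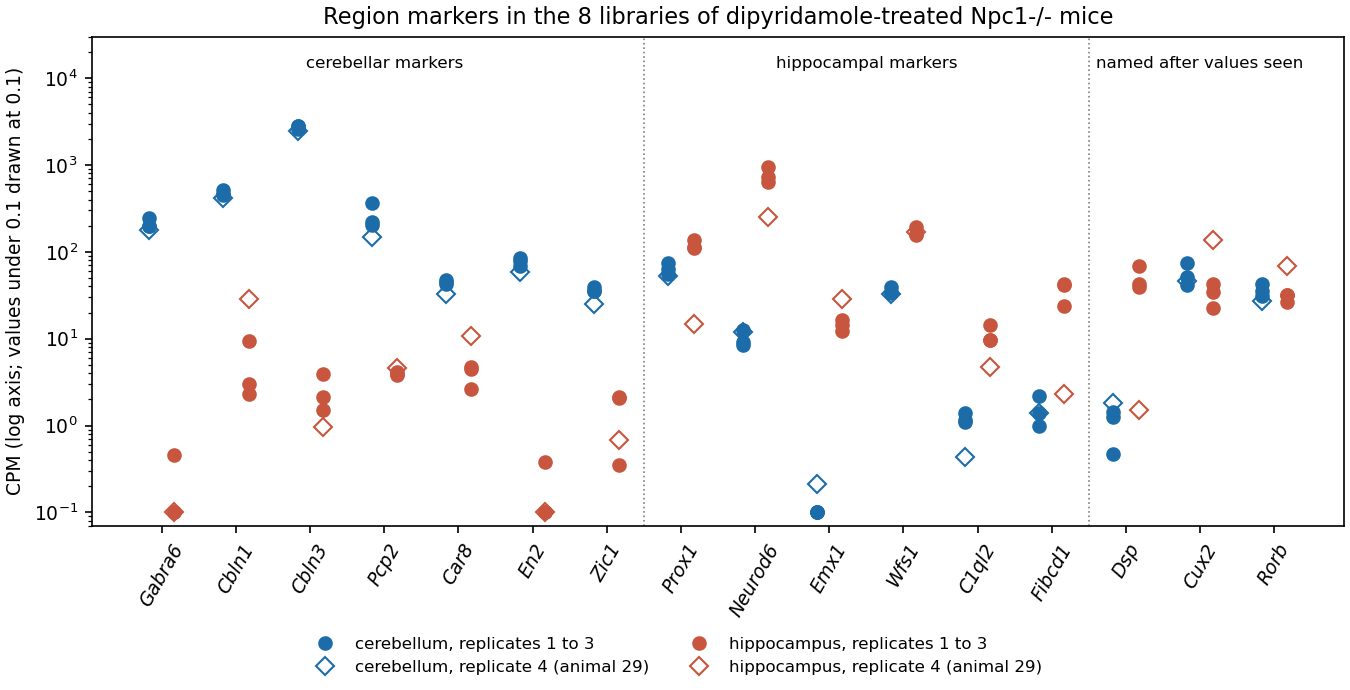
CPM (log axis) of 7 cerebellar and 6 hippocampal defining markers, and of 3 genes named after their values were seen, in the 8 libraries. Each point is a library and open diamonds are animal 29. The hippocampal diamond lies below the other hippocampal points for Prox1, Neurod6, C1ql2, Fibcd1 and Dsp and above them for Cux2 and Rorb.

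Of 12795 genes tested, 5705 passed (44.6%), 2901 of them higher in cerebellum (22.7%) and 2804 lower (21.9%). At least 2-fold differences were found in 1198 genes in the higher direction (9.36%) and 1184 in the lower (9.25%). The 4 libraries of a tissue did not overlap with those of the other tissue in 4768 genes (37.3%). Without animal 29, 6248 of 12808 genes passed (48.8%), 3206 higher (25%) and 3042 lower (23.8%). Of these, 5369 had passed in the same direction with all 4 mice and none in the opposite direction. The median log2 difference over all genes was 0.0185. Scaling to library totals in place of TMM moved that median to 0.15 and the split to 3755 higher and 2144 lower, so small differences are relative to the scaling used. Without replicate 1, 2 or 3, the counts were 4772, 4258 and 4134.

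**Figure D2:**
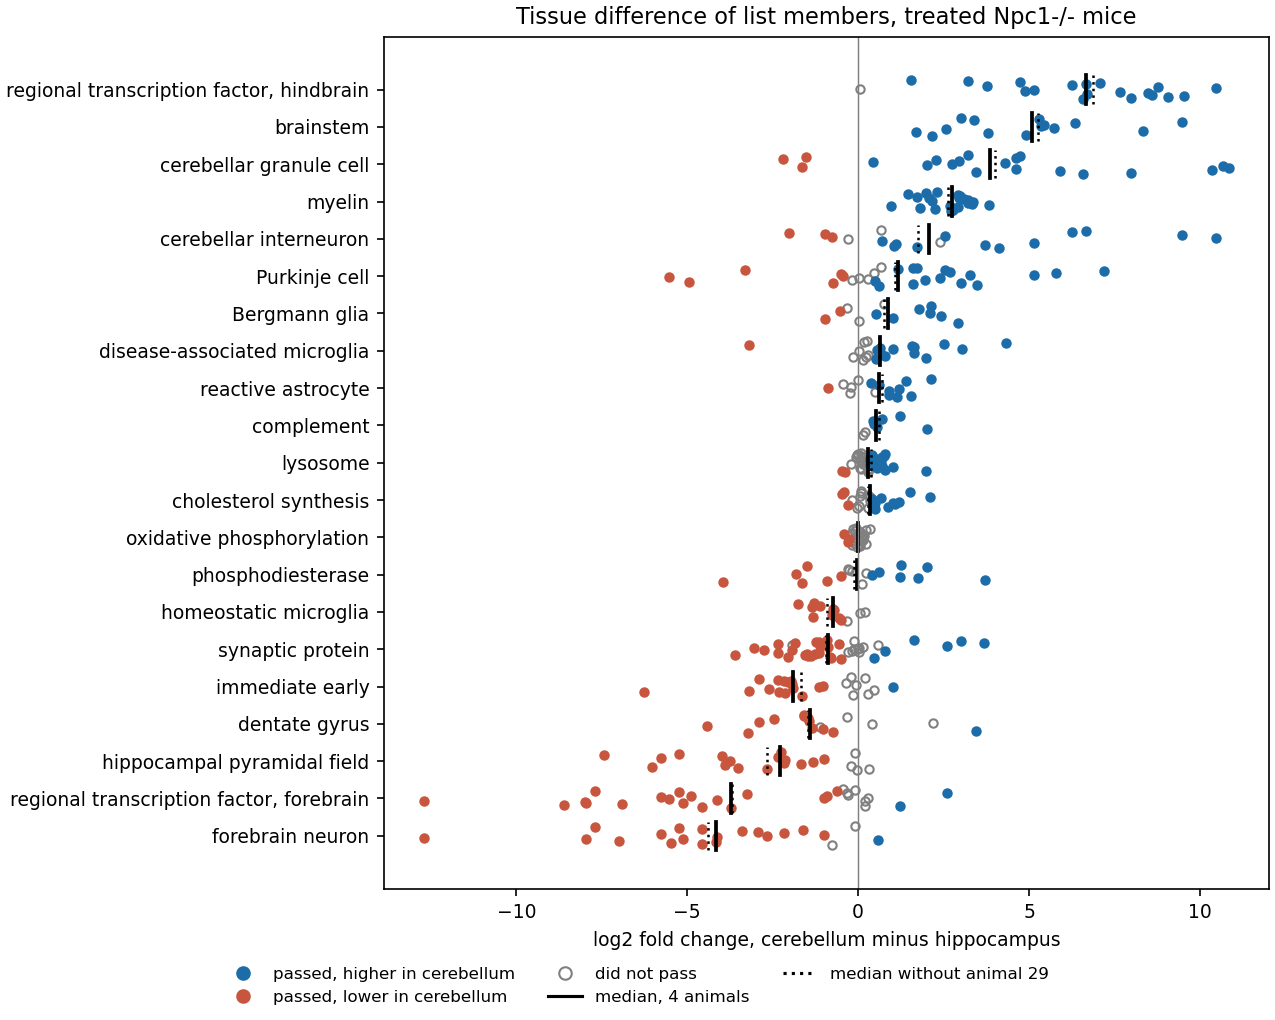
Log2 difference between the tissues (x axis, cerebellum minus hippocampus) for the tested members of 21 gene lists (rows). Filled points passed the test, open points did not, and bars mark the list median with all 4 animals (solid) and without animal 29 (dotted). Medians run from 6.67 for hindbrain transcription factors to -4.17 for forebrain neuron genes.

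Genes that set regional identity in the embryo remained far apart. Of 32 hindbrain transcription factors listed 20 were tested. Among them 19 were higher in cerebellum and none lower, with a median log2 difference of 6.67 (20 and 0 of 20 without animal 29). Of 33 forebrain transcription factors listed 27 were tested, and 2 were higher and 18 lower, with a median of -3.72 (2 and 20 of 27). The expression filter admits a gene on the counts of 1 tissue alone. These counts and medians therefore describe the lists and are no test of them. Pax2, a marker of cerebellar interneuron precursors (chromosome 19, 44744484 to 44826310), had no count in hippocampus and 17.4, 20.4, 20.6 and 25.0 CPM in cerebellum. Against a floor of 3 counts over the 4 hippocampal libraries it was at least 242-fold higher in cerebellum. Dlx6os1, a long noncoding RNA of forebrain interneurons, went the other way: it had no count in cerebellum and 16.9, 12.4, 11.5 and 10.6 CPM in hippocampus, at least 148-fold lower in cerebellum. For genes with 1 to 3 counts in the lower tissue the ratio has a wide counting interval. En2 was 831-fold higher in cerebellum on 3 hippocampal counts (95% counting interval 284 to 4033). Emx1, a forebrain homeobox gene, was 291-fold higher in hippocampus on 2 cerebellar counts (95% interval 80.1 to 2405). Both of these counts came from animal 29, whose hippocampal value was also the highest (12.4, 16.5, 14.4 and 28.8 CPM), and the other 3 cerebellar libraries had none. Dao, the D-amino acid oxidase of cerebellar astroglia, was 637-fold higher in cerebellum on 2 hippocampal counts (95% interval 176 to 5266).

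Among genes with at least 12 counts in the lower tissue, Cbln3, a secreted synapse organizer of granule cells (chromosome 14, 56116370 to 56121849), was the furthest apart in the higher direction. It gave 2844, 2622, 2786 and 2470.5 CPM in cerebellum and 1.5, 3.94, 2.13 and 0.951 CPM in hippocampus (log2 difference 10.34, SE 0.32, adjusted p = 1.71e-06; 10.14 without animal 29). Its relative Cbln1 gave 519.8, 459, 455 and 423 CPM in cerebellum and 3.00, 2.32, 9.40 and 28.4 CPM in hippocampus (log2 difference 5.90, SE 0.82, adjusted p = 0.00584; 6.72 without animal 29). The cerebellar libraries lay above every hippocampal library for both. Crtam, a nectin-like adhesion molecule, gave 62.9, 89.3, 72.7 and 98.0 CPM in cerebellum and 0.468, 0.116, 0.376 and 0.679 CPM in hippocampus (log2 difference 7.57, SE 0.24, adjusted p = 1.13e-07; 7.76 without animal 29). Patj, a scaffold protein of cell polarity, gave 619, 449, 438 and 370.0 CPM in cerebellum and 19.8, 12.9, 20.1 and 16.6 CPM in hippocampus (log2 difference 4.77, SE 0.15, adjusted p = 1.06e-07; 4.86 without animal 29). Klk6, a secreted protease of oligodendrocytes, gave 98.5, 78.2, 78.4 and 98.8 CPM in cerebellum and 1.22, 0.232, 0.627 and 1.36 CPM in hippocampus (log2 difference 6.70, SE 0.24, adjusted p = 2.3e-07; 6.89 without animal 29). Galr1, a galanin receptor, and Phex, an endopeptidase, had log2 differences of 4.84 (4.90) and 5.15 (5.39).

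In the other direction stood genes of forebrain neurons. Rgs14, a G protein regulator of CA2 neurons (chromosome 13, 55517545 to 55532500), gave 0.577, 0.156, 0.439 and 1.07 CPM in cerebellum and 123, 140.0, 143 and 45.0 CPM in hippocampus (log2 difference -7.42, SE 0.45, adjusted p = 4.85e-05; -8.29 without animal 29). Crym, a thyroid hormone binding protein, gave 4.96, 4.99, 7.69 and 5.05 CPM in cerebellum and 525, 445, 443 and 178 CPM in hippocampus (log2 difference -6.02, SE 0.27, adjusted p = 5.69e-06; -6.30 without animal 29). Ptk2b, a calcium-activated tyrosine kinase, gave 18.6, 11.7, 14.2 and 16.8 CPM in cerebellum and 956, 1124, 964 and 321 CPM in hippocampus (log2 difference -5.63, SE 0.46, adjusted p = 0.000574; -6.08 without animal 29). In these 3 genes the library labelled hippocampus, replicate 4, was the lowest of its tissue yet far above all cerebellar libraries. Kcnh3, a potassium channel of the forebrain, showed no such gap, with 2.08, 1.56, 1.76 and 1.40 CPM in cerebellum and 77.4, 88.1, 73.2 and 94.0 CPM in hippocampus (log2 difference -5.58, SE 0.17, adjusted p = 1.06e-07; -5.42 without animal 29). Syt17, Chrm1, the M1 muscarinic receptor, Kcnv1, a modifier of potassium channels, and Icam5, the adhesion molecule of forebrain dendrites, were lower in cerebellum, with log2 differences of -7.17 (-7.41), -6.99 (-7.06), -6.63 (-6.31) and -6.53 (-6.67). Slc8a1, a sodium-calcium exchanger, Baiap2l1 and Lhx6, the transcription factor of forebrain interneurons, stood at -5.94 (-7.23), -5.57 (-5.54) and -5.54 (-5.29).

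Purkinje cell genes did not all follow the tissue. Of 30 listed 27 were tested, and 16 were higher in cerebellum and 6 lower, with a median of 1.16 (17 and 7 without animal 29, median 1.08). In bulk tissue fewer cells of a type and less RNA per cell cannot be told apart. Pcp2, a G protein modulator found in Purkinje cells, gave 361, 219.6, 202 and 147 CPM in cerebellum and 3.84, 3.94, 4.14 and 4.62 CPM in hippocampus (log2 difference 5.78, SE 0.25, adjusted p = 2.29e-06; 6.04 without animal 29). Replicate 1 was the highest and replicate 4 the lowest of the cerebellar libraries. Car8, a Purkinje protein that binds the IP3 receptor, gave 44.6, 47.8, 42.7 and 32.7 CPM in cerebellum and 4.68, 2.67, 4.51 and 10.7 CPM in hippocampus (log2 difference 3.00, SE 0.41, adjusted p = 0.00164; 3.52 without animal 29), and Ppp1r17, a phosphatase inhibitor, 7.96, 12.9, 9.88 and 11.4 CPM in cerebellum and 0, 0.232, 0 and 0 CPM in hippocampus (log2 difference 7.20, SE 0.51, adjusted p = 6.51e-06; 6.88 without animal 29). Ppp1r17 rests on 2 hippocampal counts, both in replicate 2, so the size of its difference is poorly known. Calb1, the calcium buffer used to stain Purkinje cells, was lower in cerebellum, with 49.5, 63.1, 45.0 and 56.7 CPM in cerebellum and 86.3, 102, 77.7 and 92.6 CPM in hippocampus. No cerebellar library reached the lowest hippocampal library (log2 difference -0.73, SE 0.095, adjusted p = 0.000252; -0.74 without animal 29). Calb1 is also made by dentate granule and CA1 neurons. Itpka, an IP3 kinase of Purkinje and hippocampal neurons, gave 12.2, 8.42, 8.02 and 8.92 CPM in cerebellum and 395, 508, 544 and 327 CPM in hippocampus (log2 difference -5.52, SE 0.21, adjusted p = 9.9e-07; -5.63 without animal 29). Other members lower in cerebellum were Cck, a neuropeptide, at -4.95 (-4.93), and, named after their values were seen, Nptx1, a synaptic pentraxin, at -0.49 (-0.66) and Itpr1, the IP3 receptor, at -0.45 (-0.34).

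Granule cell genes were more uniform. Of 24 listed 20 were tested. All 20 passed, 17 higher in cerebellum and 3 lower, with a median of 3.87 and the same counts without animal 29. The filter admits a gene on the counts of 1 tissue alone, so counts over cell type lists describe the lists and are no test of them. Fat2, a giant cadherin of granule cells, gave 427, 316, 307 and 292 CPM in cerebellum and 0, 0.464, 0 and 0.272 CPM in hippocampus (log2 difference 10.83, SE 0.39, adjusted p = 1.85e-06; 11.12 without animal 29), and Barhl2, a homeobox gene, stood at 7.99 (8.04). The 3 lower members were Slc17a7, the vesicular glutamate transporter VGLUT1, which hippocampal neurons use too, at -2.19 (-2.15), and, named after their values were seen, Fgf5 at -1.64 (-1.56) and Tmem132d at -1.52 (-1.26). Of 18 cerebellar interneuron genes 12 were higher and 3 lower. Slc6a5, the glycine transporter of Golgi cells and other glycinergic neurons, gave 123, 121, 109 and 89.6 CPM in cerebellum and 0.187, 0.116, 0.125 and 0.136 CPM in hippocampus (log2 difference 9.48, SE 0.19, adjusted p = 1.23e-08; 9.54 without animal 29). Slc6a5 and Barhl2 rest on 5 hippocampal counts each and Fat2 on 6, so their SE do not cover the counting error. In Bergmann glia, the radial astrocytes of the cerebellum, 7 of 12 genes were higher and 2 lower. Gdf10 among them gave 51.8, 44.1, 35.8 and 27.1 CPM in cerebellum and 9.08, 9.05, 8.27 and 3.80 CPM in hippocampus (log2 difference 2.43, SE 0.16, adjusted p = 3.57e-06; 2.33 without animal 29).

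Hippocampal lists went the other way. Of 23 pyramidal field genes listed 20 were tested. None of these was higher in cerebellum and 16 were lower, with a median of -2.30 (0 and 18 of 22 without animal 29, median -2.67, and 1 higher and 15 lower without replicate 1). Neurod6 gave 12.7, 9.20, 8.57 and 11.9 CPM in cerebellum, far below each of its hippocampal values (log2 difference -5.76, SE 0.46, adjusted p = 0.000563; -6.21 without animal 29). Of 22 dentate gyrus genes listed 16 were tested, with 1 higher and 11 lower, and of 17 tested without animal 29, 2 and 14. C1ql2, a secreted organizer of mossy fibre synapses, gave 1.15, 1.40, 1.10 and 0.43 CPM in cerebellum and 14.2, 9.63, 9.65 and 4.75 CPM in hippocampus (log2 difference -3.21, SE 0.27, adjusted p = 1.64e-05; -3.18 without animal 29). Dsp, desmoplakin, a marker of dentate granule cells, gave 1.27, 0.468, 1.43 and 1.83 CPM in cerebellum and 39.1, 68.0, 43.2 and 1.49 CPM in hippocampus. Its hippocampal value in replicate 4 lay among the cerebellar ones, and its adjusted p of 0.0287 became 4.97e-08 without animal 29 but 0.0658, 0.0567 and 0.159 without replicates 1, 2 and 3. Prox1 did not pass with all mice (-0.31, adjusted p = 0.699) and passed without animal 29 (-0.88, adjusted p = 7.56e-05). Calb2, the calretinin gene, was the dentate member higher in cerebellum, with 374, 408, 421 and 472 CPM in cerebellum and 61.4, 15.5, 48.6 and 41.7 CPM in hippocampus (log2 difference 3.45, SE 0.37, adjusted p = 0.0011; 3.41 without animal 29). It is strong in cerebellar granule cells and did not pass without replicates 1 and 4 together, at an adjusted p of 0.121.

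Pairs of related genes were set beside each other. The pairs were not drawn without regard to these data, so their count describes them and gives no rate for related genes at large. Of 36 pairs, some of 1 gene family and some of related function or class, both members were tested in 32, and in 20 of those pairs they passed in opposite directions, or 19 without animal 29, where Otx2 missed at an adjusted p of 0.0629. Gabra6 stands in 2 of the 20 pairs. For the GABA-A receptor, Gabra6 had a log2 difference of 10.66 (10.41), while Gabra5, the subunit of hippocampal extrasynaptic receptors, gave 15, 22.4, 14.7 and 14.0 CPM in cerebellum and 185, 226, 163 and 48.8 CPM in hippocampus (log2 difference -3.07, SE 0.32, adjusted p = 0.000602; -3.46 without animal 29). Both vesicular glutamate transporters passed, in opposite directions: Slc17a6, VGLUT2, gave 79.1, 82.1, 89.0 and 109.6 CPM in cerebellum and 9.08, 8.47, 16.7 and 36.4 CPM in hippocampus (log2 difference 2.57, SE 0.30, adjusted p = 0.000887; 2.93 without animal 29), and Slc17a7 gave 1063, 678, 597 and 514 CPM in cerebellum and 3630.0, 3515, 3074 and 2512 CPM in hippocampus (log2 difference -2.19, SE 0.12, adjusted p = 1.77e-06; -2.15 without animal 29). The sequence before the start site of these 4 genes is shown because the members of each pair went opposite ways. It was taken from RefSeq on GRCm38.p6, reads 5′ to 3′ on the gene's strand, ends at the base before the start site and is 250 bases long. Both strands were searched for the letters CAGATG and CAGCTG, of E-boxes bound by neuronal basic helix-loop-helix factors, and TGACGTCA, the cyclic AMP response element. Capitals mark the only match, CAGATG in Gabra5, which begins 223 bases before the start. Slc17a6 has 2 entries in the table and the first is shown.
Gabra6, chr11:42321073-42321322, minus strand: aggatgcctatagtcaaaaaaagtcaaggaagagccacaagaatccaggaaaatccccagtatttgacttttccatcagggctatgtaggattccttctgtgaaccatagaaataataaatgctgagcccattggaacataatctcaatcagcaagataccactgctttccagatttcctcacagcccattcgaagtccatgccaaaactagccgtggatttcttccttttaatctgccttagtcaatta
Gabra5, chr7:57510060-57510309, minus strand: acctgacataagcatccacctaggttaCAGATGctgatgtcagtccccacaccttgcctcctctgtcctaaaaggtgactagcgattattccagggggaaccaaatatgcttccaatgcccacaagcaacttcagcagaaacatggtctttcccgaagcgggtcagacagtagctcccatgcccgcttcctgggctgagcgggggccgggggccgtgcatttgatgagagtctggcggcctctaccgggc
Slc17a6, chr7:51621580-51621829, plus strand: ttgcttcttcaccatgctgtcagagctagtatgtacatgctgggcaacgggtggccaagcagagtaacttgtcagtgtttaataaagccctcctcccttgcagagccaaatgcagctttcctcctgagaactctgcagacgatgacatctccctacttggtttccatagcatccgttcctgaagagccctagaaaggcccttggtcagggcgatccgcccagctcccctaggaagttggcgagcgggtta
Slc17a7, chr7:45163671-45163920, plus strand: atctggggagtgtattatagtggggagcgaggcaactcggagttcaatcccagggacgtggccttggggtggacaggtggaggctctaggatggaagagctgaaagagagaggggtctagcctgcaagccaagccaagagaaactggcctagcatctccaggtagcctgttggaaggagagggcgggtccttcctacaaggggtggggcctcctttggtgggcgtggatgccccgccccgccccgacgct
CAGATG stands in 14.5% of 27025 windows of this length, TGACGTCA in 1.62% and CAGCTG in 12.8%. Among genes at least 2-fold higher in cerebellum that had a window, 15.8% of 891 held CAGATG, and among those at least 2-fold lower 10.6% of 894. For all tested genes with a window the share was 10% of 9964. CAGCTG stood in 13.9% of the higher, 16% of the lower and 11.9% of all tested genes, and TGACGTCA in 1.8%, 1.9% and 2.68%. A match is a description of letters and not a binding site.

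Glutamate receptors showed the same division. Of 16 ionotropic receptor genes, 5 were higher in cerebellum and 9 lower (87.5% passed, against 44.6% of all genes). Grin2c, the NMDA receptor subunit of mature granule cells, gave 494, 488, 487 and 462 CPM in cerebellum and 81.2, 79.3, 72.6 and 59.4 CPM in hippocampus (log2 difference 2.75, SE 0.10, adjusted p = 2.3e-07; 2.67 without animal 29). Grin2b, its forebrain relative, gave 39.8, 34.1, 35.9 and 41.4 CPM in cerebellum and 514, 562, 434 and 307 CPM in hippocampus (log2 difference -3.54, SE 0.18, adjusted p = 3.79e-06; -3.76 without animal 29). The tissues did not overlap in either. Gria1, an AMPA receptor subunit, gave 77.4, 209, 195 and 223 CPM in cerebellum and 747, 1593, 1491 and 366 CPM in hippocampus. In hippocampus replicates 1 and 4 lay far below replicates 2 and 3, and replicate 1 was also the lowest in cerebellum. Gria1 passed with all mice (log2 difference -2.49, SE 0.52, adjusted p = 0.0189; -3.03 without animal 29) but not without replicate 3, at an adjusted p of 0.102. Gria4, another subunit, stood at 1.74 (1.99). Cacng8, which carries AMPA receptors to hippocampal synapses, gave 60.5, 79.5, 71.6 and 88.1 CPM in cerebellum and 1077, 1224, 1158 and 273 CPM in hippocampus (log2 difference -3.46, SE 0.55, adjusted p = 0.00793; -4.02 without animal 29). It did not pass without replicate 3, at an adjusted p of 0.0547. Among metabotropic receptors, Grm4, on parallel fibre endings, stood at 4.28 (4.68), against -2.12 (-2.06) for Grm7. Among calcium sensors of transmitter release, Syt2 stood at 3.68 (4.07) and Syt1 at -1.85 (-1.77). Of the vesicle priming proteins Unc13c stood at 3.01 (3.49) and Unc13a at -1.23 (-1.33), and of the vesicle fusion proteins Vamp1 at 1.64 (1.69) and Vamp2 at -0.92 (-0.93). Over 39 synaptic protein genes 6 were higher and 23 lower (74.4% passed), with a median of -0.89. Of 32 calcium binding and signalling genes 7 were higher and 19 lower (81.25% passed). Camk2a, the kinase of forebrain excitatory synapses, gave 60.8, 52.4, 59.7 and 49.0 CPM in cerebellum and 2775, 3143, 2889 and 1527 CPM in hippocampus (log2 difference -5.48, SE 0.17, adjusted p = 1.54e-07; -5.65 without animal 29), and Hpca, hippocalcin, 110.0, 117, 134 and 79.3 CPM in cerebellum and 2605, 3128, 3064 and 811 CPM in hippocampus (log2 difference -4.29, SE 0.26, adjusted p = 4.45e-05; -4.59 without animal 29).

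**Figure D3:**
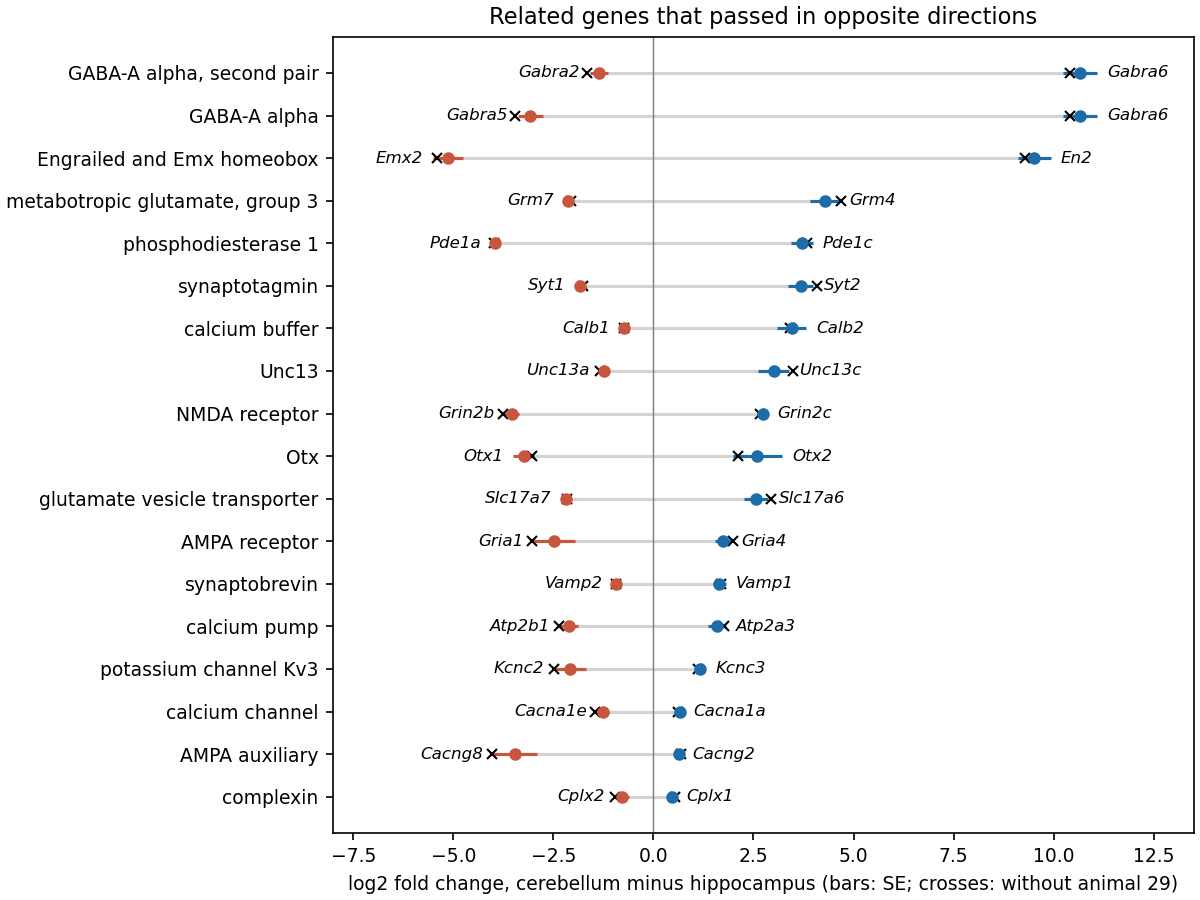
Log2 difference between the tissues (x axis, cerebellum minus hippocampus, bars are SE) for 18 of the 20 pairs of related genes that passed in opposite directions. Crosses give the value without animal 29. The other 2 pairs are not reported. En2 and Emx2 lie at 9.52 and -5.13, and Gabra6 and Gabra5 at 10.66 and -3.07.

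Genes of brainstem transmitter systems were far higher in cerebellar samples. Of 21 brainstem genes listed 14 had the counts to be tested, which those of 1 tissue can supply. All 14 were higher in cerebellum, with a median of 5.10, and all 14 again without animal 29. Their summed CPM ran from 608 to 715 in cerebellum and from 27.6 to 55.7 in hippocampus. Glra1, the adult glycine receptor subunit (chromosome 11, 55405064 to 55499024), gave 173, 173, 187 and 185 CPM in cerebellum and 0.655, 0.58, 0.501 and 0.407 CPM in hippocampus (log2 difference 8.33, SE 0.17, adjusted p = 1.23e-08; 8.22 without animal 29). Slc18a3 and Slc5a7, the vesicular acetylcholine transporter and the choline transporter, stood at 5.72 (6.27) and 5.35 (5.29), with cerebellar values of 23.8, 28.8, 25.7 and 31.5 CPM for Slc18a3 and 15.8, 21.0, 21.0 and 25.9 CPM for Slc5a7. No hippocampal library exceeded 1.22 and 0.627 CPM. Th, tyrosine hydroxylase, gave 54.8, 29.6, 35.7 and 25.4 CPM in cerebellum and 1.87, 0.928, 0.376 and 0.543 CPM in hippocampus (log2 difference 5.29, SE 0.25, adjusted p = 6.67e-07; 5.22 without animal 29), and Slc6a4, the serotonin transporter, 8.07, 9.82, 17 and 7.52 CPM in cerebellum and 0.281, 0, 0.125 and 0 CPM in hippocampus (log2 difference 6.35, SE 0.49, adjusted p = 1.08e-05; 6.14 without animal 29). Some of these are also made in cerebellum: Th in Purkinje cells, and Glra1 and Slc6a5 in its nuclei and Golgi cells. How far attached brainstem tissue enters these values was not tested.

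Myelin genes all went one way. All 22 tested were higher in cerebellum, with a median of 2.74 (2.64 without animal 29, again 22 of 22), and 21 of them were at least 2-fold higher. Mbp, myelin basic protein, gave 8748, 7734, 7447 and 7461 CPM in cerebellum and 1401, 637, 1263 and 457 CPM in hippocampus (log2 difference 3.22, SE 0.29, adjusted p = 0.000366; 2.95 without animal 29). Hippocampal values split into a higher pair, replicates 1 and 3, and a lower pair, replicates 2 and 4, and all lay below every cerebellar library. Without replicates 1 and 4 together Mbp did not pass, at an adjusted p of 0.0643. Mag, the adhesion protein of the inner myelin membrane, gave 266, 210.2, 199.7 and 161 CPM in cerebellum and 29.8, 18.4, 28.2 and 10.3 CPM in hippocampus (log2 difference 3.35, SE 0.18, adjusted p = 2.81e-06; 3.17 without animal 29). Gjb1, a gap junction protein of oligodendrocytes, gave 48.7, 32.7, 39.1 and 35.9 CPM in cerebellum and 5.34, 1.86, 1.88 and 2.31 CPM in hippocampus (log2 difference 3.84, SE 0.21, adjusted p = 1.75e-06; 3.77 without animal 29). Of 19 genes of oligodendrocyte precursors and newly formed oligodendrocytes, 8 were higher and 4 lower (63.2% passed, against 44.6% of all genes). Enpp6, a marker of newly forming oligodendrocytes, gave 44.6, 32.6, 41.7 and 42.7 CPM in cerebellum and 7.87, 5.45, 7.64 and 6.52 CPM in hippocampus (log2 difference 2.57, SE 0.13, adjusted p = 1.27e-06; 2.52 without animal 29).

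Microglial genes differed by list. Of 22 genes of disease-associated microglia, the lipid-handling state seen around degenerating neurons, 14 were higher in cerebellum and 1 lower, with a median of 0.64 (15 and 1 without animal 29). Of 13 homeostatic microglial genes none was higher and 10 were lower, with a median of -0.72 (-0.91 without animal 29, again 10 lower). That count fell to 5 without replicate 2. In the disease-associated and homeostatic lists 68.2% and 76.9% passed, against 44.6% of all genes tested. Gpnmb, a glycoprotein of lipid-laden phagocytes, gave 62.7, 68.4, 65.7 and 61.0 CPM in cerebellum and 5.71, 5.57, 10.5 and 11.1 CPM in hippocampus (log2 difference 3.03, SE 0.22, adjusted p = 1.3e-05; 3.23 without animal 29). Spp1, osteopontin, gave 246, 220.4, 235 and 164 CPM in cerebellum and 12.3, 6.96, 14.8 and 9.91 CPM in hippocampus (log2 difference 4.33, SE 0.18, adjusted p = 4.62e-07; 4.41 without animal 29). It is also made by brainstem and cerebellar nuclear neurons. Lyz2, the myeloid lysozyme, gave 615, 475, 481 and 569.7 CPM in cerebellum and 56.5, 92.6, 104 and 139 CPM in hippocampus (log2 difference 2.52, SE 0.25, adjusted p = 0.000402; 2.68 without animal 29), and reads could be shared with its near copy Lyz1. All cerebellar libraries exceeded all hippocampal ones for these 3 genes. Lpl, lipoprotein lipase, was the one member lower, with 8.07, 4.21, 5.82 and 5.05 CPM in cerebellum and 83.5, 73.8, 64.8 and 16.4 CPM in hippocampus (log2 difference -3.18, SE 0.37, adjusted p = 0.000837; -3.59 without animal 29). Hippocampal neurons make it too. Tmem119, which marks resting microglia, gave 19.6, 14.2, 13.7 and 12.4 CPM in cerebellum and 41.9, 36.3, 40.4 and 29.2 CPM in hippocampus (log2 difference -1.29, SE 0.13, adjusted p = 5.87e-05; -1.31 without animal 29). Siglech, a lectin of microglia, gave 6.23, 5.92, 7.36 and 7.31 CPM in cerebellum and 19.2, 23.5, 29.8 and 20.1 CPM in hippocampus (log2 difference -1.76, SE 0.17, adjusted p = 3.75e-05; -1.86 without animal 29). The cerebellar libraries were all below the hippocampal ones in both. These tissue differences were not all particular to Npc1-/- mice. Mean CPM in Npc1+/+ cerebellum and hippocampus was 9.80 and 32.8 for Tmem119 and 5.92 and 15.8 for Siglech. It was 107 and 7.06 for Spp1, 2.09 and 91.5 for Lpl, 17.5 and 11.6 for Lyz2 and 0.345 and 1.19 for Gpnmb. Gpnmb thus went the other way there.

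Complement genes differed less firmly. Of 8 complement genes 6 were higher in cerebellum and none lower (75% passed, against 44.6% of all genes), with a median of 0.51. The count was 7 without animal 29 but only 2 without replicate 1 and 2 without replicate 3. C3, the central complement component, gave 18.0, 21.2, 27.3 and 27.3 CPM in cerebellum and 7.58, 4.76, 11.0 and 1.63 CPM in hippocampus (log2 difference 2.01, SE 0.43, adjusted p = 0.0112; 1.55 without animal 29). Of 17 interferon response genes 1 was higher and none lower, a share below that of all genes tested. Of 11 antigen presentation genes 4 were higher and none lower, a share of 36.4% against 44.6% of all genes. Of 15 reactive astrocyte genes 9 were higher and 1 lower, so 66.7% passed (9 and 2 without animal 29). Vim, vimentin, which Bergmann glia also make, gave 288, 213, 202 and 183 CPM in cerebellum and 59.2, 45.5, 47.0 and 51.1 CPM in hippocampus (log2 difference 2.13, SE 0.11, adjusted p = 1.24e-06; 2.22 without animal 29), and Gfap, the astrocyte filament protein, 158, 109.6, 134 and 108 CPM in cerebellum and 56.6, 55.0, 53.5 and 55.5 CPM in hippocampus (log2 difference 1.21, SE 0.12, adjusted p = 4.99e-05; 1.29 without animal 29). Aqp4, the water channel of astrocyte endfeet, gave 253, 362, 373 and 360.3 CPM in cerebellum and 73.6, 65.5, 57.8 and 58.8 CPM in hippocampus (log2 difference 2.40, SE 0.16, adjusted p = 6.08e-06; 2.32 without animal 29). Lhx2, a forebrain homeobox gene also found in astrocytes, stood at -4.13 (-4.02). Of 14 endothelial genes 1 was lower (7.14% passed). Of 15 choroid plexus genes 1 was higher, the homeobox gene Otx2, and none without animal 29, while without replicate 1, whose hippocampal library had the high choroid plexus sum, 13 were higher.

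In the lysosomal list, which the missing protein belongs to, 18 of 39 genes were higher in cerebellum and 2 lower, with a median of 0.29 (20 and 2 without animal 29). The share that passed, 51.3%, was near the 44.6% of all genes tested. The count of lower genes was 1 without replicate 1, 1 without replicate 2 and 0 without replicate 3. The count of higher genes was 12 without replicate 2 and 12 without replicate 3, and 24 under scaling to library totals. Ctsd, the protease cathepsin D, gave 2846, 2819.7, 3161 and 3244 CPM in cerebellum and 1384, 1439, 1647 and 1509.8 CPM in hippocampus (log2 difference 1.03, SE 0.085, adjusted p = 1.51e-05; 1.00 without animal 29). Atp6v0d2, a proton pump subunit of macrophages, gave 13.7, 7.95, 10.5 and 11.6 CPM in cerebellum and 2.53, 2.09, 2.63 and 3.94 CPM in hippocampus (log2 difference 1.99, SE 0.23, adjusted p = 0.000114; 2.15 without animal 29), and Cd63, a late endosomal tetraspanin, stood at 0.80 (0.81). The tissues did not overlap in these genes. Npc2, which hands cholesterol to NPC1 and was named after its value was seen, stood at 0.77 (0.79), with an adjusted p of 0.000178. Of 23 cholesterol synthesis and uptake genes 10 were higher and 3 lower, the latter 0 without replicate 1 and 0 under scaling to library totals. Here 56.5% passed, against 44.6% of all genes. Stard4, a sterol carrier, gave 74.3, 75.6, 78.3 and 79.6 CPM in cerebellum and 28.1, 21.1, 28.6 and 32.6 CPM in hippocampus (log2 difference 1.51, SE 0.12, adjusted p = 1.39e-05; 1.57 without animal 29), and Hmgcs1, an early enzyme of synthesis, stood at 1.07 (1.04), with an adjusted p of 0.011 that became 0.0595 without replicate 1. Of 21 sterol efflux and transport genes 14 were higher and 2 lower (76.2% passed), with 9 higher without replicate 2. Apod, a lipid carrier, gave 1677, 1954, 1831 and 2542 CPM in cerebellum and 517, 611, 782 and 1023 CPM in hippocampus (log2 difference 1.49, SE 0.11, adjusted p = 8.49e-06; 1.55 without animal 29). Cyp46a1, the neuronal enzyme that turns cholesterol into an exportable oxysterol, gave 47.2, 75.9, 59.0 and 65.2 CPM in cerebellum and 204, 202, 199 and 322 CPM in hippocampus (log2 difference -1.88, SE 0.15, adjusted p = 1.67e-05; -1.74 without animal 29). Of 26 sphingolipid genes 10 were higher and 5 lower (57.7% passed), with 6 higher without replicate 2 and 6 without replicate 3. Ugt8a, which makes the galactolipids of myelin, stood at 2.30 (2.35) and Smpd3, a neutral sphingomyelinase, at -1.90 (-1.98). By contrast, of 26 oxidative phosphorylation genes none was higher and 3 were lower, with a median of -0.0074, though 6 were higher and 1 lower under scaling to library totals. Without replicate 2 or without replicate 3 the lower count was 1, and without replicate 4 there were 2 higher.

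Phosphodiesterase genes differed between the tissues member by member. Not all of them need encode targets of dipyridamole. Of 18 phosphodiesterase genes tested 7 were higher in cerebellum and 6 lower, with a median near 0 at -0.039 (8 and 6 without animal 29). The share that passed was 72.2%, against 44.6% of all genes tested. Within the calcium-activated family 1, Pde1c gave 42.3, 71.7, 76.1 and 66.0 CPM in cerebellum and 5.52, 2.90, 4.39 and 6.65 CPM in hippocampus (log2 difference 3.70, SE 0.27, adjusted p = 4.23e-05; 3.83 without animal 29) and Pde1a 10.6, 9.82, 9.55 and 13.3 CPM in cerebellum and 156, 163, 165 and 189 CPM in hippocampus (log2 difference -3.95, SE 0.11, adjusted p = 7.96e-08; -3.99 without animal 29). The tissues did not overlap in either gene, and the 2 differences were of similar size with opposite sign. Pde8a, of the high-affinity cyclic AMP family, stood at 2.02 (1.89) and its relative Pde8b at -1.48 (-1.48). Pde3a and Pde3b, cyclic GMP-inhibited enzymes, stood at 1.75 (1.68) and 1.22 (1.22), and Pde9a, a cyclic GMP enzyme, at 1.26 (1.27). Each of these but Pde8b was higher in cerebellum. Pde5a, the cyclic GMP enzyme that dipyridamole is known to inhibit, gave 17.5, 13.1, 13.6 and 15.2 CPM in cerebellum and 8.80, 11.0, 11.4 and 8.28 CPM in hippocampus (log2 difference 0.61, SE 0.19, adjusted p = 0.0272; 0.52 without animal 29), and did not pass without replicate 1 (adjusted p = 0.122). Pde11a gave 5.30, 3.43, 4.39 and 4.41 CPM in cerebellum and 23.5, 16.5, 15.8 and 4.89 CPM in hippocampus, where the library labelled hippocampus, replicate 4, lay within the cerebellar range (log2 difference -1.64, SE 0.34, adjusted p = 0.00518; -2.06 without animal 29). Pde1b and Pde4a were lower, at -0.91 (-0.90) and -0.50 (-0.59). Pde4c, whose mean was under 5 CPM in both tissues, was also lower, at -1.82 (-1.69). Pde4b, a cyclic AMP enzyme of neurons and immune cells, stood at 0.42 (0.52) and did not pass without replicate 2 (adjusted p = 0.161) or replicate 3 (adjusted p = 0.138).

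Of 18 genes of adenosine handling and nucleoside transport tested 4 were higher and 3 lower (6 and 3 without animal 29, and 7 higher under scaling to library totals), a share of 38.9% near the 44.6% of all genes. Slc29a1, the equilibrative transporter ENT1 that dipyridamole blocks, gave 18.2, 10.8, 13.1 and 8.70 CPM in cerebellum and 7.58, 6.03, 6.52 and 4.35 CPM in hippocampus (log2 difference 1.05, SE 0.18, adjusted p = 0.00119; 1.06 without animal 29). The tissues did not overlap. Slc29a3, a lysosomal member of the family, stood at 0.87 (0.86), while Slc29a2, ENT2, did not pass (log2 difference 0.042, SE 0.15, adjusted p = 0.846; 0.21 without animal 29) and was named after its value was seen. Adora1, the inhibitory adenosine receptor, gave 7.27, 3.12, 5.27 and 5.48 CPM in cerebellum and 25.1, 28.9, 36.1 and 10.9 CPM in hippocampus (log2 difference -2.15, SE 0.35, adjusted p = 0.0024; -2.50 without animal 29). Gda, guanine deaminase, gave 3.58, 5.14, 5.60 and 5.91 CPM in cerebellum and 177, 145, 132 and 167 CPM in hippocampus (log2 difference -4.92, SE 0.18, adjusted p = 2.3e-07; -4.96 without animal 29). Of the remaining 3, Nt5c1a, a cytosolic nucleotidase, stood at 0.85 (0.77), Entpd1, the ectonucleotidase CD39, at -0.74 (-0.74) and Ampd3, an AMP deaminase, at 0.46 (0.45). Entpd1 and Ampd3 did not pass without replicate 1 (adjusted p = 0.0715 and 0.0756) or replicate 2 (adjusted p = 0.113 and 0.14), and Ampd3 not without replicate 3 (adjusted p = 0.0637). Of 28 other cyclic nucleotide signalling genes 6 were higher and 13 lower (67.9% passed), with 10 and 15 without animal 29. Rapgef4, a cyclic AMP sensor, stood at -2.63 (-2.48) and Pkib, an inhibitor of protein kinase A, at 2.25 (2.25).

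**Figure D4:**
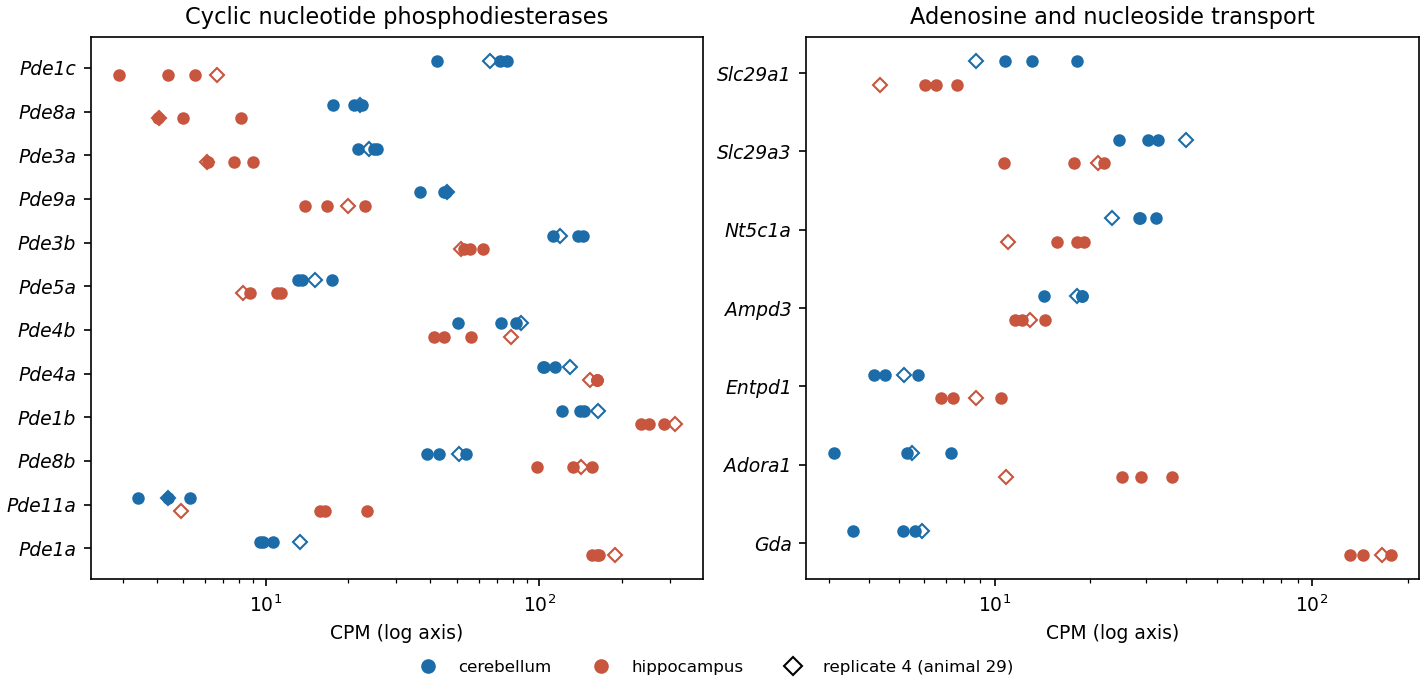
CPM (log axis) of the phosphodiesterase genes (left) and the adenosine and nucleoside transport genes (right) that passed the test at 5 CPM or more in the higher tissue, in each of the 8 libraries. Open diamonds are animal 29. Pde1c and Pde1a sit at opposite ends, and Slc29a1 is higher in all 4 cerebellar libraries.

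Activity-dependent genes were lower in cerebellum. Of 23 immediate early genes tested 1 was higher and 15 lower, with a median of -1.92 (-1.67 and 3 higher and 14 lower without animal 29). The share that passed was 69.6%, against 44.6% of all genes. Egr3, a zinc finger transcription factor, gave 0.115, 0.312, 0 and 0.322 CPM in cerebellum and 9.74, 16.8, 11.5 and 22.0 CPM in hippocampus (log2 difference -6.28, SE 0.37, adjusted p = 2.28e-06; -6.46 without animal 29). Egr4 gave 6.34, 5.30, 5.71 and 4.83 CPM in cerebellum and 53.0, 50.6, 38 and 65.1 CPM in hippocampus (log2 difference -3.18, SE 0.18, adjusted p = 1.92e-06; -2.99 without animal 29), and Nr4a3, a nuclear receptor, 5.07, 4.83, 2.64 and 1.93 CPM in cerebellum and 33.6, 27.7, 33.8 and 12.6 CPM in hippocampus (log2 difference -2.89, SE 0.22, adjusted p = 9.1e-06; -2.94 without animal 29). The summed CPM of the list was 849 to 1506 in hippocampus, the highest in replicate 4, and 323 to 397 in cerebellum. Ier2, named after its value was seen, was the member higher in cerebellum, at 1.01 (1.22), and no member was higher without replicate 2. Of 20 neuropeptide genes 9 were higher and 10 lower, and Cck gave 11.8, 8.57, 7.58 and 6.23 CPM in cerebellum and 289, 256, 307 and 202 CPM in hippocampus (log2 difference -4.95, SE 0.14, adjusted p = 7.96e-08; -4.93 without animal 29). Of 18 genes of the unfolded protein and heat shock responses 5 were higher and 2 lower, again 38.9% against 44.6% of all genes, with 3 higher without replicate 2 and 3 without replicate 3. Atf3, a transcription factor of injured neurons, gave 17.4, 13.6, 17.6 and 14.7 CPM in cerebellum and 2.43, 3.13, 5.14 and 4.75 CPM in hippocampus (log2 difference 2.08, SE 0.23, adjusted p = 0.000104; 2.24 without animal 29).

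The same tissue difference in vehicle-injected Npc1-/- mice was then set beside that of treated mice, which asks where dipyridamole changed it. No gene of 13436 passed edgeR's test of the interaction (0%), and 222 had an unadjusted p under 0.05 (1.65%). DESeq2 also called 0, with 169 unadjusted. Without animal 29 the counts were 0 of 13553 and 248 (1.83%). Genes with the smallest p are given as values, with an adjusted p of 1 for each. Htr5b, a serotonin receptor, had a treated minus vehicle difference of -3.16 (SE 0.87), with 0.461, 0, 0 and 0.215 CPM in treated cerebellum and 1.43, 1.54, 0.749 and 4.46 CPM in vehicle cerebellum. Tspan14, a tetraspanin, had -1.03 (SE 0.30), with 6.92, 16.2, 26.7 and 15.7 and 28.5, 21.6, 27.2 and 27.7 CPM. Shox2, Wnt10b and Hspa1a, the last nearly identical in sequence to Hspa1b, had 4.15, 4.08 and 1.98 (SE 1.15, 1.16 and 0.56). Htr5b, Shox2 and Wnt10b rest on few counts in the lower tissue. Htr5b had 4, 0, 0 and 2 counts in treated cerebellum and 12, 3, 6 and 31 in vehicle cerebellum. Shox2 had 1, 0, 0 and 0 counts in treated hippocampus and 0, 1, 7 and 5 in vehicle hippocampus. Wnt10b had 7, 8, 1 and 9 counts in treated cerebellum and 1, 0, 0 and 0 in vehicle cerebellum. The 4 libraries of vehicle cerebellum include replicate 2, the shallowest of the series. A p that misses the threshold does not show that the tissue difference was alike in both groups.

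Against Npc1+/+ mice 245 of 13436 genes differed in their tissue difference (1.82%), 127 with a more positive difference in treated mice (0.945%) and 118 with a more negative one (0.878%). Treated and Npc1+/+ mice also differed in age and sex. Sex was fitted from the Npc1-/- mice. Age cannot be told apart from genotype. The contrast holds both genotype and treatment, and the vehicle-injected Npc1-/- mice, of the age of the treated ones, are given beside it. Without animal 29, 131 of 13553 passed (0.967%; 69 or 0.509% more positive, 62 or 0.457% more negative), and without Npc1+/+ replicate 4 there were 488. Without Npc1+/+ replicate 3 the count was 159. The 10 genes with the smallest p passed in both fits and under each alternative tried.

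Purkinje genes led less in the cerebellum of treated mice. Of 29 tested 16 had a more negative tissue difference in treated mice and none a more positive one, with a median of -1.52 (11 without animal 29). Calb1 gave 679.8, 709, 639 and 640.2 CPM in Npc1+/+ cerebellum and 49.5, 63.1, 45.0 and 56.7 CPM in treated cerebellum. Its hippocampal values were 104, 116, 129.8 and 118 and 86.3, 102, 77.7 and 92.6 CPM (difference of differences -3.04, SE 0.23, adjusted p = 2.55e-06). In vehicle-injected Npc1-/- mice Calb1 gave 41.3, 39.6, 79.6 and 48.6 CPM in cerebellum, which overlapped with treated mice. The gene that was far higher in cerebellum of Npc1+/+ mice was thus lower there than in hippocampus in treated mice. Car8 fell from 667, 697, 866 and 667 to 44.6, 47.8, 42.7 and 32.7 CPM in cerebellum (-4.69, SE 0.39, adjusted p = 6.44e-06). Itpka gave 143, 104, 138 and 111 CPM in Npc1+/+ cerebellum and 12.2, 8.42, 8.02 and 8.92 CPM in treated cerebellum, with overlapping hippocampal values (-3.87, SE 0.36, adjusted p = 2.7e-05). Tuba8, Icmt and Cep76, an alpha tubulin, a carboxyl methyltransferase and a centrosomal protein, had -2.49, -2.24 and -2.81. Of 20 granule cell genes 1 had a more negative difference.

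Myelin genes went the other way, with lower values in hippocampus. Of 23 tested 19 had a more positive difference and none a more negative one, with a median of 2.25 (16 without animal 29). Mag gave 195, 147, 183 and 106 CPM in Npc1+/+ hippocampus and 29.8, 18.4, 28.2 and 10.3 CPM in treated hippocampus. In cerebellum the values were 182, 233, 182 and 235 and 266, 210.2, 199.7 and 161 CPM, which overlapped (2.90, SE 0.32, adjusted p = 0.000113). Vehicle-injected Npc1-/- hippocampus had 25.7, 31.1, 22.7 and 26.2 CPM of Mag. Mal, a myelin proteolipid, gave 185, 171, 181 and 123 and 28.4, 19.4, 30.0 and 18.2 CPM in hippocampus (2.25, SE 0.25, adjusted p = 0.000113). Prima1, the membrane anchor of acetylcholinesterase, had 2.81. Gpnmb, near 0 in both Npc1+/+ tissues (0.347, 0.4, 0.513 and 0.121 CPM in cerebellum and 0.452, 1.52, 2.01 and 0.755 CPM in hippocampus), had 4.11, SE 0.43, adjusted p = 7.01e-05. In the microglial lists 10 of 22 disease-associated genes were more positive (4 without animal 29) and 4 of 13 homeostatic genes (1 without animal 29), none of either list being more negative. Of 39 lysosomal genes 5 were more positive, and none without animal 29. Of 18 phosphodiesterases Pde8a was more positive (1.96, adjusted p = 0.00755, and 0.0789 without animal 29) and Pde5a more negative (-1.62, adjusted p = 0.00938, and 0.032 without animal 29), and no adenosine gene passed. Mean Pde5a in cerebellum was 46.8 CPM in Npc1+/+, 13.6 in vehicle-injected Npc1-/- and 14.8 in treated mice. Mean Pde8a in hippocampus was 17.6, 6.70 and 5.31 CPM in the same order. The difference between vehicle-injected Npc1-/- and Npc1+/+ mice was not tested. Immediate early genes differed in 3 of 25, all more negative in treated mice, among them Egr4 at -2.12 and Nr4a3 at -1.83, which both passed without animal 29.

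**Figure D5:**
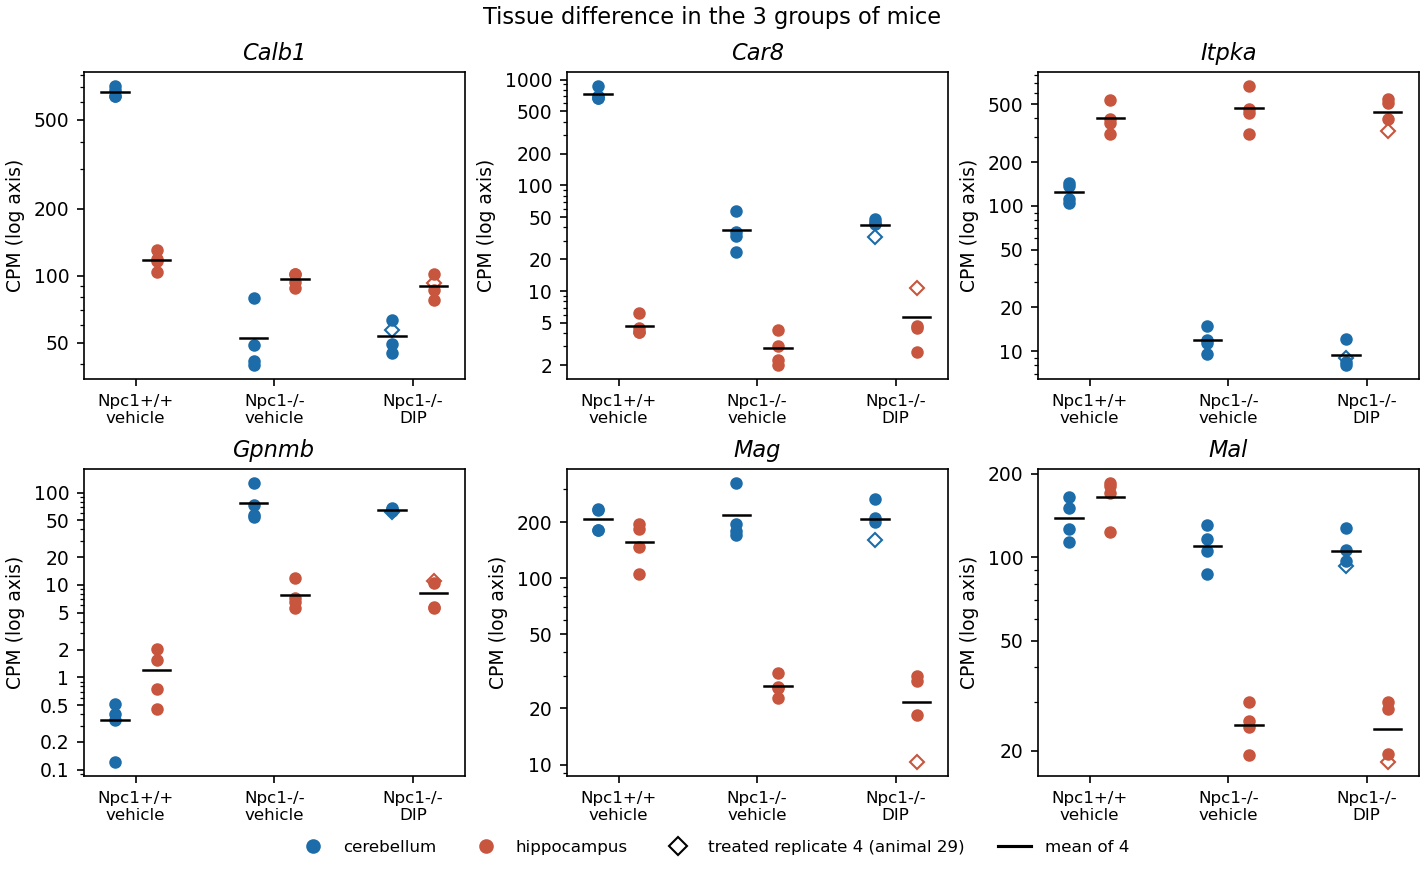
CPM (log axis) of 6 genes in cerebellum and hippocampus of the 3 groups of mice. Each point is a library, bars are means of 4 and open diamonds are treated animal 29. Calb1, Car8 and Itpka are lower in cerebellum of both Npc1-/- groups than of Npc1+/+ mice, and Mag and Mal are lower in their hippocampus.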

How the data were processed

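Per the labels' protocols, libraries of both tissues came from an Ion AmpliSeq panel for mouse genes, a short amplicon for each, and were read on the Ion S5. The deposited values are gene counts. The submitters' processing notes name FastQC 0.11.9, Trimmomatic 0.39, STAR 2.7.9a and featureCounts 2.0.3, and the coordinates are those of GRCm39, per the file headers. The authors counted without strand, per the file headers, so a gene and its antisense partner cannot be told apart, and without molecular identifiers, so intervals cover counting error only. Of 57126 gene IDs 51884 had a symbol, and those without one held 0.208% of treated counts.

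From the counts, edgeR 4.0.16 (R 4.3.3) fitted the 8 libraries with TMM scaling, filterByExpr, a robust quasi-likelihood test and the animal as a block, which left 3 residual degrees of freedom (2 without animal 29). The interactions used all 24 libraries, with a tissue-by-sex term. DESeq2 1.42.0 and limma 3.58.1 were alternatives. CPM share a TMM scale over 24 libraries. The labels give both tissues of an animal 1 number, and their deviations from the tissue means correlated at 0.11 to 0.371, each best with its own animal. Gene lists and members were chosen with earlier results of these data known. Named genes had the 12 largest differences per direction (at least 20 CPM in the higher and 12 counts in the lower tissue, no overlap, passing with and without animal 29), up to 4 passing genes per list, or the smallest p of an interaction. Some genes are not reported here, though they stay in the counts over lists.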

Additional observations from a re-analysis of the deposited data

Results flagged for a closer look

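In 10 of 165 groups of 4 libraries checked, 1 library stood apart from the other 3. Chance gives about 1 in 20, a rate near the one found. The rule takes the gap over the range, so a small difference can meet it where the other 3 lie close together. Of the 10, 3 were the library labelled hippocampus, replicate 4. Its summed CPM was 1794 for the hippocampal pyramidal field list (2838 to 2994 in the others), 624 for the dentate gyrus list (971 to 1014) and 670.0 for the neocortex list (405 to 416). The hippocampal library of replicate 1 stood apart in the choroid plexus sum (5745, others 181 to 470.0). It did so too in the sum of unfolded protein and heat shock genes (2263, others 2543 to 2592) and in Dlx5, a homeobox gene of forebrain interneurons (10.2 CPM, others 8.42 to 8.58). The cerebellar library of replicate 1 stood apart in the forebrain neuron sum (1819, others 1588 to 1608) and the sum of forebrain GABAergic interneuron genes (2083, others 2267 to 2286). It also did in Chrm1 (1.5 CPM, others 0.752 to 0.779), and that of replicate 3 in Crym (7.69 CPM, others 4.96 to 5.05).

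The tissue difference of 245 genes differed between treated Npc1-/- and Npc1+/+ mice in edgeR's interaction test. Values are given for the 10 of them named for the smallest p. The difference of log2 differences was -3.04 for Calb1, -4.69 for Car8, -2.49 for Tuba8, -3.87 for Itpka, -2.24 for Icmt, -2.81 for Cep76, 4.11 for Gpnmb, 2.81 for Prima1, 2.90 for Mag and 2.25 for Mal. Age cannot be told apart from genotype in these values. The contrast holds genotype and treatment together, and no gene passed between treated and vehicle-injected Npc1-/- mice.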

How the results depend on the processing

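The count of 5705 genes that differed between the tissues of treated mice stayed within 1.5 times under each alternative run: 4987 without the replicate block, 5396 with DESeq2, 5820 with limma-voom, 4544 under a stricter filter and 4134 to 6248 when 1 mouse was left out. Of 214 named genes, 13 missed the threshold without replicate 3, 9 without replicate 1, 7 without replicate 2 and 3 without the replicate block. Leaving out 1 mouse took Prox1 from -0.88 (without replicate 4) to 0.048 (without replicate 2), and Npc1, which did not pass, from -0.17 (without replicate 4) to 0.25, with -0.074 without replicates 1 and 4. Against vehicle mice the count was 0 in each alternative, the fit without the replicate block included. Against Npc1+/+ mice the 245 genes became 227 without the replicate block, 385 with DESeq2 (209 more positive), 131 with only the groups compared (65 and 66), 369 without the tissue-by-sex term (208 more positive) and 101 without treated replicate 4 and vehicle replicate 2 (54 and 47). Leaving out 1 mouse gave 131 to 488 genes, 69 to 252 more positive and 62 to 236 more negative. The cause was not tested. Low counts in 1 tissue, and 4 mice, limit the precision.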
